A study of Mus musculus with 6 samples.

Results

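Mitochondria fuse and divide, and the 9 genes described here encode the main parts of that machinery and of the inner membrane it acts on. They were Dnm1l, Fis1 and Mff for fission, Mfn1, Mfn2 and Opa1 for fusion, and Oma1, Yme1l1 and Phb2 for the upkeep of the inner membrane. Members were found as every gene probe whose transcript accession on the array belongs to 1 of these genes. This gave 15 probes of the 39429 gene probes on the array, and all 15 passed the filter on dim probes, which kept 25544 in all. RNA came from conditionally immortalised mouse podocytes, kidney epithelial cells of the glomerular filter, immortalised by a temperature-sensitive SV40 T antigen. They grew at 33 °C and were differentiated at 37 °C for 10 days. They carried a lentiviral pGIPZ vector with a short hairpin RNA, scrambled in shControl and directed against the long noncoding RNA Tug1 in the others. There were 3 groups with 2 biological replicates each, shControl, shTug1 clone 2 and shTug1 clone 3, on 6 one-colour Agilent arrays. Each shTug1 group is a clone, so its replicates sample that clone and not the range of clones. The comparisons ask whether these genes differ between podocytes with the Tug1 hairpin and controls, and between the clones.

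In fission, the dynamin-related GTPase encoded by Dnm1l is drawn to the outer mitochondrial membrane by adaptors such as Mff, while Fis1 is an outer membrane protein tied to fission and to mitochondrial turnover. In fusion, the mitofusins Mfn1 and Mfn2 join outer membranes and Opa1 joins inner membranes. The inner membrane proteases encoded by Oma1 and Yme1l1 cut Opa1, and Phb2 with its partner prohibitin forms ring-shaped scaffolds in the same membrane. Podocytes depend on mitochondria for the energy that keeps their foot processes, and the balance of fusion and fission in them has been studied in kidney disease.

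The level given for a probe is the log2 of its processed signal minus the log2 of the 75th percentile of all gene spots on that array, so 0 is the level of that percentile. Levels of different probes are not comparable, since each probe binds with its own strength. In processed signal the 75th percentile stood at 324 and 363 in control and between 569 and 1055 on the 4 arrays labelled shTug1, while the signal at which the brightest 1% of gene spots began lay between 65859 and 96435 with the groups overlapping. Both control arrays came from 1 scan and the 4 arrays labelled shTug1 from another, with array positions 1 and 2 used in both. Wherever clones are set against control, slide and hairpin cannot be told apart, whereas the clones share a slide. The label check was mixed. The Tug1 probe measured on all 6 arrays stood above both controls under the clone 2 label and below both under the clone 3 label, at −2.88 and −2.49 in control, −1.86 and −1.88 under the clone 2 label, and −3.10 and −3.23 under the clone 3 label. Its log2 fold change for the mean of the clones was 0.16 (SE 0.29, limma adjusted p = 0.654), which averages opposite shifts. A second Tug1 probe, not well above background in control, was measured on 3 of the 4 arrays labelled shTug1. The mean of the 4 was at least 1.33-fold higher, although shTug1 clone 3 replicate 1 lay between the controls. Its limma adjusted p of 0.0306 comes from the fit to the signals as they stood, and not from that bound. Every direction below is therefore that of arrays labelled shTug1. Of 15 podocyte markers, 12 were well above background on all 6 arrays, Nphs1, Wt1 and Synpo among them. Podxl and Tcf21 did not enter the test. Summed levels of the podocyte list, in units of the 75th percentile, were 123 to 140 in control, 69.7 to 72.7 under the clone 2 label and 63.7 to 69.0 under the clone 3 label. Summed mesangial and stromal markers were at 1024 to 1065, 387 to 410 and 412 to 577 in the same order, with 7 of 9 well above background on all arrays and Des on none. Summed endothelial markers were at 5.83 to 6.24, 2.77 to 3.14 and 3.05 to 3.50, with 5 of 8 well above background on all arrays and Tek and Emcn on none. Summed tubular and parietal markers were at 174 to 327, 45.4 to 48.4 and 65.1 to 83.0, with 6 of 10 on all arrays and Slc12a1 on none. Summed immune markers were at 14.4 to 29.9, 3.57 to 3.63 and 5.06 to 5.73, with 5 of the 7 that have a probe on all arrays and Lyz2 on none. Markers of other cell types were thus also well above background on all 6 arrays, among them Acta2, Tagln, Kdr, Cdh16 and Csf1r. The part of these levels in the results was not tested.

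The stretches before the starts of 4 genes are printed to show what the genes that moved have upstream: Mfn2, Mff and Phb2, whose probes were all higher on the arrays labelled shTug1, and Dnm1l, whose probe was lower. Each is the 250 bases before the most upstream start in the RefSeq table of mouse promoters (GRCm38.p6), written 5′ to 3′ on the strand of the gene. Capitals mark matches, on either strand, to 6 motifs of factors that act on nuclear genes for mitochondrial proteins or on growth and stress genes.
Mfn2, chr4:147904910-147905159, minus strand: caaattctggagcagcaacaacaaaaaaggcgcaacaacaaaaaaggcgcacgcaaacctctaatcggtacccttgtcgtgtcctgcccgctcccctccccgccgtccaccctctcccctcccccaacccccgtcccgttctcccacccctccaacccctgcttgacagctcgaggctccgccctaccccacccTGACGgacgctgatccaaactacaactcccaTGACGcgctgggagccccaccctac
Mff, chr1:82724640-82724889, plus strand: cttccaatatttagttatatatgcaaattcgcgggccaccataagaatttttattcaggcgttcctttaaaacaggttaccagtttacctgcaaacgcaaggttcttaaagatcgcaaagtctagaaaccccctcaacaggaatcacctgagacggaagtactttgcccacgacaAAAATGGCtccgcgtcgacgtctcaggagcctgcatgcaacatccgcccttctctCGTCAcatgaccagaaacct
Phb2, chr6:124712039-124712288, plus strand: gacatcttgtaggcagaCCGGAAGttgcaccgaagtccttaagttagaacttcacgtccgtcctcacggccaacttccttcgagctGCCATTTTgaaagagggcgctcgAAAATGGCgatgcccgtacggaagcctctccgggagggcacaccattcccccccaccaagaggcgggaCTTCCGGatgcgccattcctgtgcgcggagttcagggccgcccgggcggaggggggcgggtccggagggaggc
Dnm1l, chr16:16359032-16359281, minus strand: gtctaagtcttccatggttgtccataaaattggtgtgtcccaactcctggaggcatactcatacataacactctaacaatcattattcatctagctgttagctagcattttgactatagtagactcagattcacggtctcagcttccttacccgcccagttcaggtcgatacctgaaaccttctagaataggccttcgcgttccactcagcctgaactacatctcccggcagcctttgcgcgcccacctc
The motifs were CGCANGCG for the core of the NRF1 site, TNAAGGTCA for the oestrogen-related receptors, CCGGAAG for ETS factors such as GABP, AANATGGC for YY1, CACGTG for E-box factors and TGACG for CREB and ATF factors. None of these is contained in another. They were found in 6.76%, 1.14%, 6.91%, 3.91%, 6.02% and 17.8% of the 32851 windows of that length in the table. Mfn2 held TGACG at 2 places, Mff held 1 AANATGGC and 1 TGACG, and Phb2 held 2 CCGGAAG and 2 AANATGGC. Dnm1l held no match to the 6 motifs in its window. Across the 9 genes, TGACG was found before 4 (Mff, Mfn1, Mfn2 and Yme1l1), CCGGAAG before 4 (Fis1, Mfn1, Yme1l1 and Phb2), AANATGGC before 3 (Mff, Mfn1 and Phb2) and CGCANGCG before 2 (Opa1 and Oma1), while the receptor and E-box motifs were found before 0. These are matches of letters, not binding sites.

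Against control, the fusion gene Mfn2, the fission adaptor gene Mff and the inner membrane gene Phb2 were higher on the arrays labelled shTug1. The fission gene Dnm1l and 1 of the 2 probes of the fission gene Fis1 were lower. Oma1, another inner membrane gene, was higher under the clone 2 label, and it entered the test only through that group, the one where it was high. Mfn1 and Opa1, the other fusion genes, and Yme1l1 did not pass the test. For the mean of the clones minus control, 7 of the 15 probes were higher (3 of Mfn2, 2 of Phb2, and those of Mff and Oma1), 2 were lower (Dnm1l and 1 of Fis1) and 6 did not pass (limma, Benjamini-Hochberg adjustment over all probes tested, threshold 0.05). Of all probes tested, 11.8% were higher and 27.6% were lower in this comparison. After quantile normalization the members split into 6 higher and 0 lower (7 and 0 at an unadjusted p under 0.05, beside 20.4% and 24.5% of all probes), and all probes into 3451 higher and 3438 lower, against 3009 and 7045 as reported. The median log2 fold change was 0.95 over the 15 member probes and −0.57 over all probes tested, and 12 member probes lay above the median probe and 3 below it. All 4 arrays labelled shTug1 lay above both controls for 6 member probes and below both for 2, while the groups overlapped for 7. The shares among all probes tested were 14% above and 40.3% below. The 9 calls depended on single arrays: without shTug1 clone 3 replicate 2 there were 0 in either direction, without shTug1 clone 3 replicate 1 there were 3 and 0, without shControl replicate 1 there were 4 and 0, and without shTug1 clone 2 replicate 2 there were 6 and 1. At an unadjusted p under 0.05 the counts over the 6 fits that left out 1 array were 6 to 8 higher and 2 to 3 lower, beside 11.9% to 18% and 25.7% to 51.5% of all probes, and the number of calls among all probes fell in 5 of these fits, to 488 higher and 230 lower without shTug1 clone 3 replicate 2.

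**Figure D1:**
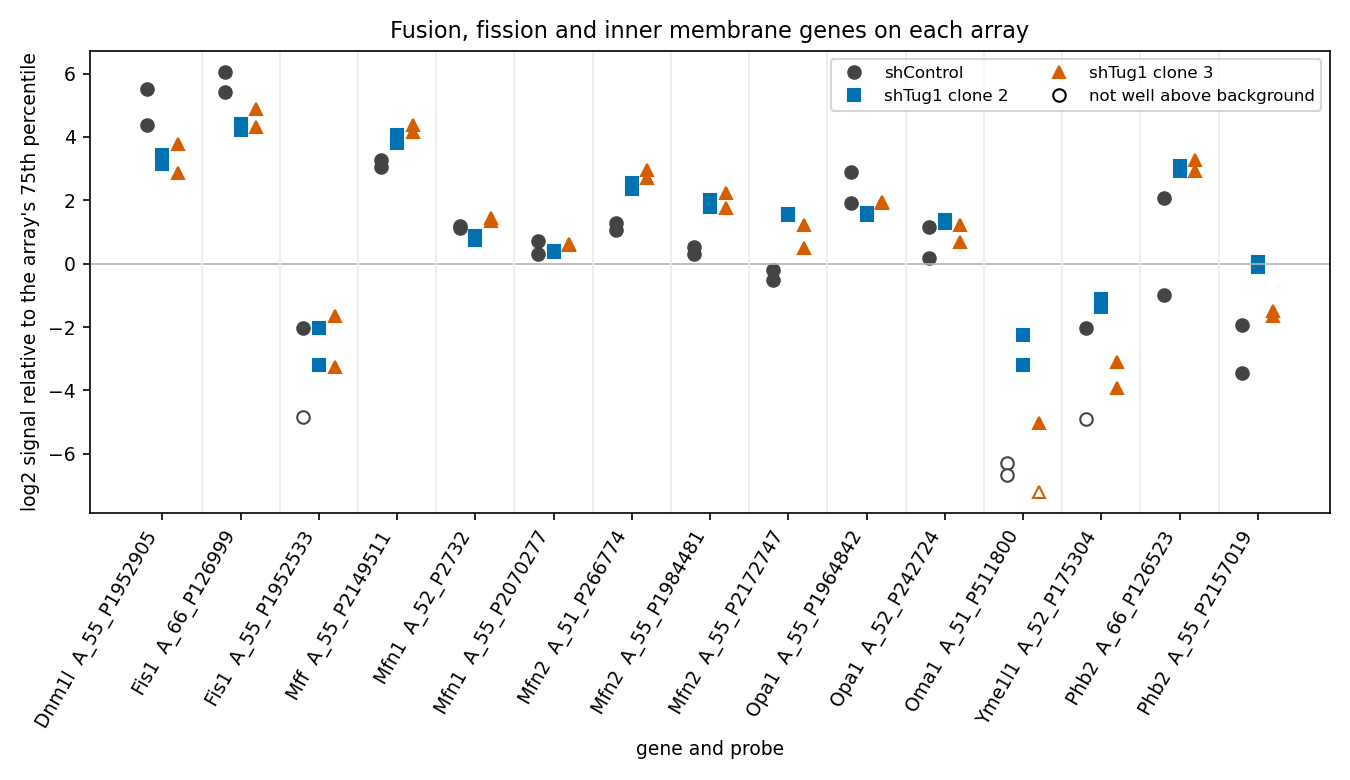
Level of each probe as log2 signal above the 75th percentile of its array (y axis) for the 15 probes of the 9 genes (x axis), with 2 points per group. Open points were not well above background. The Mfn2, Mff and Phb2 probes show all points labelled shTug1 above both controls, and the Dnm1l and brighter Fis1 probes show them below.

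**Figure D2:**
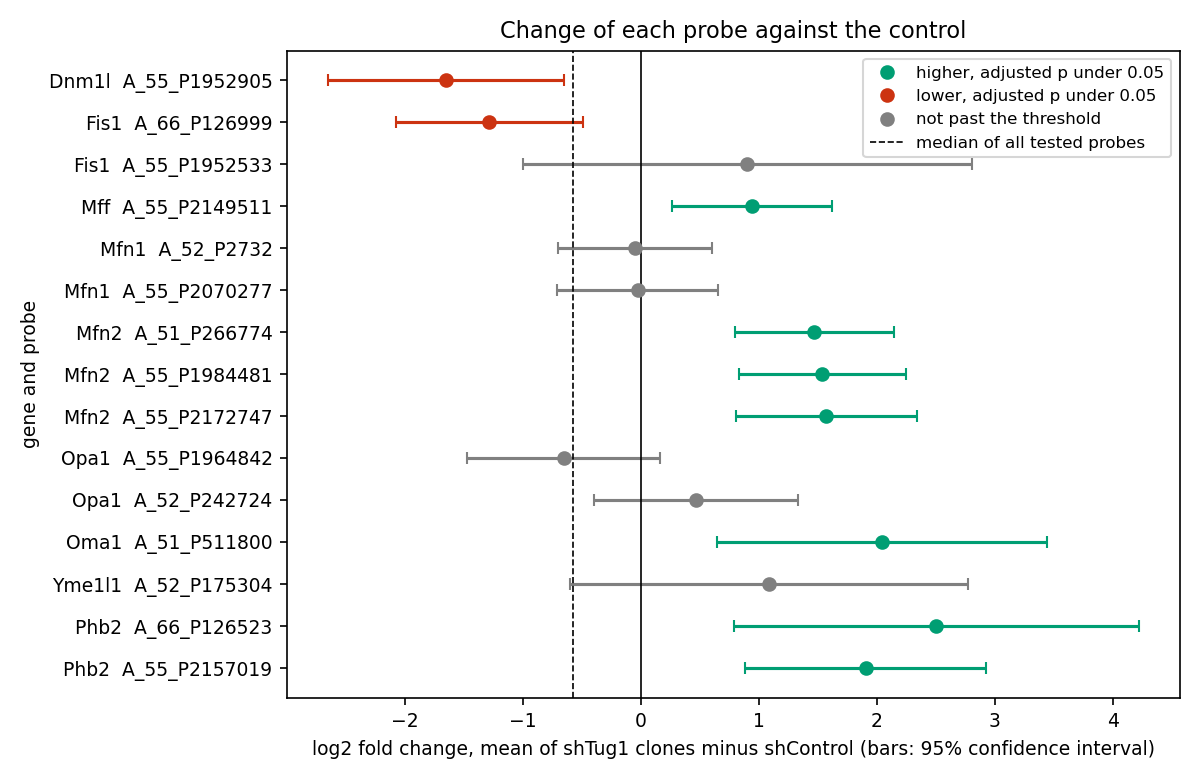
Log2 fold change of each probe for the mean of the shTug1 clones minus control (x axis), with 95% confidence intervals from limma. Of the 15 probes, 7 passed as higher and 2 as lower, and the dashed line marks the median of all tested probes at −0.57.

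Among the fission genes, Mff went up and Dnm1l and the brighter Fis1 probe went down against the array's 75th percentile. Mff, which encodes the adaptor that recruits the fission GTPase, had a level of 3.04 and 3.27 in control, 3.82 and 4.07 under the clone 2 label, and 4.14 and 4.36 under the clone 3 label. All 4 arrays labelled shTug1 were above both controls. The log2 fold change was 0.95 (SE 0.29, 95% interval 0.27 to 1.62, adjusted p = 0.0380 from limma), or 1.93-fold. The unscaled processed signal of Mff was 2671 and 3494 in control and between 10063 and 17119 on the arrays labelled shTug1, on arrays whose 75th percentile was itself higher. After quantile normalization the log2 fold change of Mff was 1.59 (limma adjusted p = 0.0208). The Mff call was lost in 5 of the 6 fits that left out 1 array, every one except that without shControl replicate 2. In those 5 the log2 fold change stayed between 0.83 and 1.01 (limma adjusted p between 0.0609 and 0.142).

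Dnm1l, the gene of the fission GTPase itself, had a level of 5.52 and 4.39 in control, 3.43 and 3.14 under the clone 2 label, and 2.87 and 3.77 under the clone 3 label. All 4 arrays labelled shTug1 were below both controls, although the controls differed from each other by more than the lower control differed from the nearest of them. The log2 fold change was −1.65 (SE 0.43, 95% interval −2.65 to −0.65, limma adjusted p = 0.0247), 3.14-fold lower. The processed signal of Dnm1l before scaling, which carries the difference in 75th percentile between the arrays, was 14884 and 7611 in control, 11358 and 8351 under the clone 2 label, and 4156 and 11372 under the clone 3 label, and the groups overlapped. With the deposited series values Dnm1l did not pass (−0.84, limma adjusted p = 0.103). After quantile normalization Dnm1l no longer passed (−0.84, limma adjusted p = 0.126), nor did it without shControl replicate 1 (−1.09, 0.110), without shTug1 clone 3 replicate 1 (−1.43, 0.0776) or without shTug1 clone 3 replicate 2 (−1.88, 0.0643).

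Fis1 had 2 probes. The brighter (A_66_P126999) had a level of 6.06 and 5.42 in control, 4.41 and 4.21 under the clone 2 label, and 4.89 and 4.31 under the clone 3 label, with no overlap. Its log2 fold change was −1.28 (SE 0.34, 95% interval −2.07 to −0.49, limma adjusted p = 0.0259), 2.43-fold lower. The unscaled processed signal of this probe overlapped between groups, at 21584 and 15562 in control and between 16535 and 22352 on the arrays labelled shTug1. After quantile normalization it did not pass (−0.43, limma adjusted p = 0.178), nor with the deposited series values (−0.43, adjusted p = 0.152). Nor did it pass without shControl replicate 1 (−0.96, adjusted p = 0.0763), shTug1 clone 2 replicate 2 (−1.23, 0.0585), shTug1 clone 3 replicate 1 (−1.43, 0.0623) or shTug1 clone 3 replicate 2 (−1.14, 0.103). The dimmer Fis1 probe (A_55_P1952533) was not well above background on shControl replicate 2, and its levels spread from −4.85 to −2.03 in control, −3.20 to −2.02 under the clone 2 label and −3.27 to −1.65 under the clone 3 label. It gave 0.90 (SE 0.82, limma adjusted p = 0.383), and its sign turned without shControl replicate 2 (−0.51) and with another background correction (−0.09).

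Bright probes as a class were lower in this comparison, and the Dnm1l and brighter Fis1 probes were bright. With all tested probes cut into 10 equal classes by mean signal, the brightest class, which held that Fis1 probe, had a median log2 fold change of −1.09 with 56.7% of probes lower. The class below it, which held Dnm1l and Mff, had a median of −0.86 with 41.8% lower and 6.62% higher. Relative to the median of all tested probes, Dnm1l stood at −1.08, Fis1 at −0.71 and Mff at 1.52. The rank of a probe among the gene probes of its own array needs no scaling. By rank, Mff stood at percentiles 86.9 and 89.4 in control and 93.1 to 94.5 on the arrays labelled shTug1. Dnm1l stood at 94.5 and 93.2 in control and 88.5 to 92.3 there, and Fis1 at 95.7 and 95.9 against 94.0 to 95.3. Each of the 3 kept its direction without overlap, and the gap for Fis1 was the narrowest of these.

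**Figure D3:**
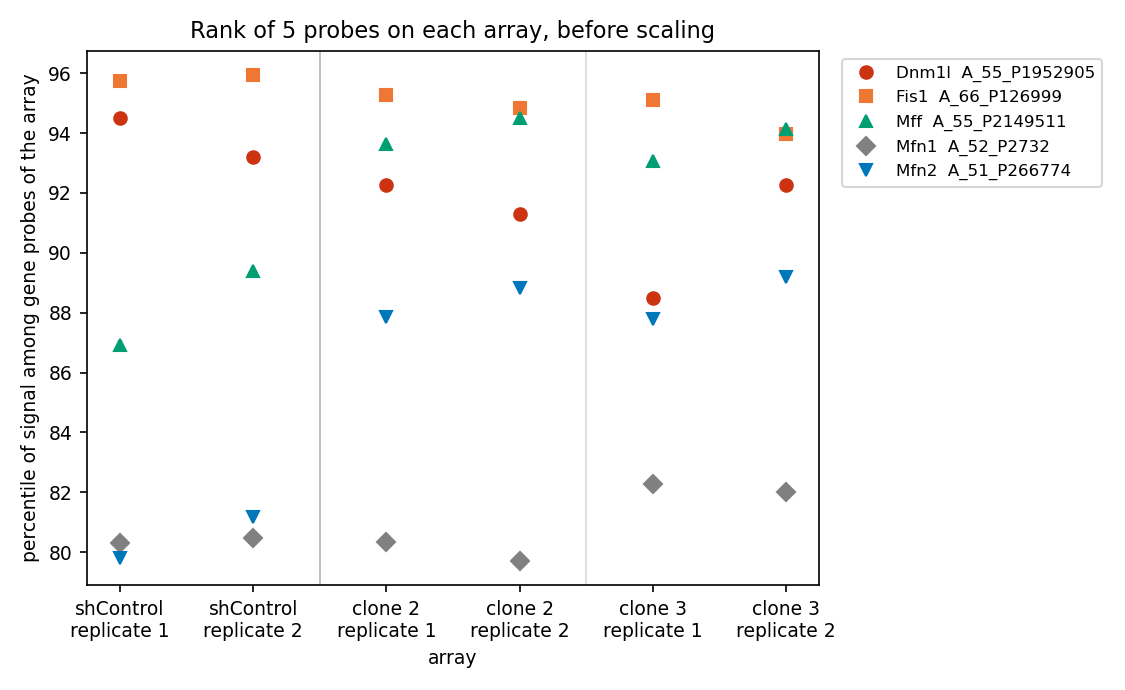
Percentile of the processed signal among the gene probes of the same array (y axis) for 5 probes on each of the 6 arrays (x axis). Mff and Mfn2 stand higher on all 4 arrays labelled shTug1 than on both controls, Dnm1l and Fis1 stand lower, and Mfn1 lies between 79.7 and 82.3 throughout.

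The mitofusins gave unlike values: all 3 Mfn2 probes rose, and neither Mfn1 probe passed. Mfn2, which joins outer membranes and also tethers mitochondria to the endoplasmic reticulum, had a level at its brightest probe (A_51_P266774) of 1.07 and 1.28 in control, 2.37 and 2.55 under the clone 2 label, and 2.71 and 2.94 under the clone 3 label. The lowest of the 4 arrays labelled shTug1 was above the highest control by more than the control arrays differed. The log2 fold change was 1.47 (SE 0.29, 95% interval 0.80 to 2.14, limma adjusted p = 0.0148), or 2.77-fold. The second probe (A_55_P1984481) stood at 0.30 and 0.51 in control, 2.01 and 1.80 under the clone 2 label, and 1.75 and 2.23 under the clone 3 label. The third (A_55_P2172747) stood at −0.53 and −0.21, 1.55 and 1.58, and 0.48 and 1.21 in the same order. Neither overlapped with control, and they gave 1.54 (SE 0.30, limma adjusted p = 0.0149) and 1.57 (SE 0.33, adjusted p = 0.0164). Unscaled, the processed signal of the brightest probe was 681 and 882 in control and between 3730 and 6400 on the arrays labelled shTug1. Over the alternatives that could be fitted, the Mfn2 fold changes stayed between 1.37 and 1.86 on the log2 scale. The call of each probe was lost without shTug1 clone 3 replicate 2 (1.41, 1.42 and 1.39, limma adjusted p = 0.0705, 0.0703 and 0.0721), and that of the brightest also without shTug1 clone 3 replicate 1 (1.53, 0.0532).

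Mfn1, the other mitofusin, had a level at its brighter probe (A_52_P2732) of 1.20 and 1.12 in control, 0.88 and 0.75 under the clone 2 label, and 1.45 and 1.36 under the clone 3 label. The clones thus lay on opposite sides of both controls, and for the mean of the clones the groups overlapped. The log2 fold change was −0.05 (SE 0.28, limma adjusted p = 0.896), and the interval from −0.70 to 0.61 bounds what these arrays allow. The second Mfn1 probe (A_55_P2070277) stood at 0.73 and 0.32 in control, 0.38 and 0.38 under the clone 2 label, and 0.62 and 0.59 under the clone 3 label, and gave −0.03 (SE 0.29, adjusted p = 0.945, interval −0.71 to 0.65). Both Mfn1 values changed sign after quantile normalization (0.15 and 0.10) and median scaling (0.25 and 0.27). Against the median of all tested probes they stood at 0.52 and 0.54. The difference between Mfn2 and Mfn1 within an array does not depend on scaling. For their brightest probes it stood at −0.13 and 0.16 in control, 1.49 and 1.80 under the clone 2 label, and 1.26 and 1.59 under the clone 3 label, a change of 1.52. All 4 arrays labelled shTug1 lay above both controls, and the exact two-sided permutation test over the 15 splits of the arrays gave p = 0.0667, the smallest this design allows. The same difference for Mff minus Dnm1l went from −2.48 and −1.12 in control to between 0.39 and 1.28, and for Mff minus Fis1 from −3.01 and −2.16 to between −0.75 and 0.05, each without overlap and with the same exact p (0.0667 also after adjustment over the 3 pairs). These pairs were chosen after their values were seen, and the adjustment covers only the pairs chosen, so these p values are no test. Mff had been seen above both controls and Dnm1l and Fis1 below both, which fixed the outcome of their differences beforehand.

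Opa1, the GTPase of inner membrane fusion, did not pass at either probe, and its probes pointed in opposite directions. The brighter (A_55_P1964842) stood at 2.89 and 1.93 in control, 1.61 and 1.54 under the clone 2 label, and 1.96 and 1.92 under the clone 3 label. The dimmer (A_52_P242724) stood at 0.19 and 1.17, 1.37 and 1.28, and 0.70 and 1.22. For both probes shControl replicate 1 was the array farthest from the rest and the groups overlapped. The log2 fold changes were −0.65 (SE 0.35, limma adjusted p = 0.163) and 0.47 (SE 0.37, adjusted p = 0.325). Without shControl replicate 2 both passed, in opposite directions (−1.14, limma adjusted p = 0.00832, and 0.96, adjusted p = 0.0346), and without shControl replicate 1 neither did (−0.17 and −0.02).

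Among the inner membrane genes, Phb2, the prohibitin scaffold subunit, rose at both probes, and its brighter probe had the widest spread between controls of the 15. The brighter (A_66_P126523) stood at −0.98 and 2.07 in control, 2.93 and 3.09 under the clone 2 label, and 3.26 and 2.92 under the clone 3 label. All 4 arrays labelled shTug1 were above both controls and within 0.34 of each other, while the controls lay 3.06 apart. The log2 fold change was 2.50 (SE 0.74, 95% interval 0.79 to 4.22, limma adjusted p = 0.0338), or 5.67-fold, and depended on which control was used: it was 0.97 (adjusted p = 0.0504) without shControl replicate 1 and 4.03 (adjusted p = 0.00295) without shControl replicate 2. The dimmer Phb2 probe (A_55_P2157019) stood at −3.45 and −1.94 in control, −0.10 and 0.05 under the clone 2 label, and −1.64 and −1.48 under the clone 3 label, again without overlap. It gave 1.91 (SE 0.44, 95% interval 0.88 to 2.93, limma adjusted p = 0.0192), or 3.75-fold. It was 1.15 (adjusted p = 0.0372) without shControl replicate 1 and 2.66 (adjusted p = 0.00309) without shControl replicate 2, and 0.99 (adjusted p = 0.00766) with another background correction. The brighter probe also missed the threshold after quantile normalization (2.85, limma adjusted p = 0.0519). Both missed it without shTug1 clone 3 replicate 1 (2.42 and 1.95, adjusted p = 0.0844 and 0.0581) or shTug1 clone 3 replicate 2 (2.59 and 1.87, adjusted p = 0.0874 and 0.0745).

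Oma1, the stress-activated protease of the inner membrane, was near the floor of the arrays. Its level was −6.28 and −6.67 in control, −3.20 and −2.26 under the clone 2 label, and −7.21 and −5.04 under the clone 3 label. The signal was well above background on both arrays labelled clone 2 and on 1 labelled clone 3 (replicate 2), and on neither control. The clone 2 arrays were at least 2.99-fold above control, where each dim control counts as the lowest signal that its array measured well above background if its own was lower. The limma adjusted p of 0.0124 comes from the fit to the signals without this floor, and not from the bound. The arrays labelled clone 3 overlapped with control, replicate 1 lying below both, and did not pass (limma adjusted p = 0.743). The mean of the clones passed (limma adjusted p = 0.0337) with groups that overlapped and controls that give only a bound, so its fitted value of 2.04 is no measured fold. With another background correction that value turned sign (−0.24, adjusted p = 0.418). The call for the mean was also lost without shControl replicate 1 (adjusted p = 0.129), shControl replicate 2 (0.129) or shTug1 clone 3 replicate 2 (0.0798). Yme1l1, the protease that cuts Opa1 in unstressed mitochondria, stood at −4.91 and −2.02 in control, −1.11 and −1.37 under the clone 2 label, and −3.91 and −3.11 under the clone 3 label. The signal of shControl replicate 1 was not well above background, and the arrays labelled clone 3 lay between the controls. The log2 fold change of Yme1l1 was 1.09 (SE 0.72, limma adjusted p = 0.245). It was −0.36 without shControl replicate 1 and 2.53 without shControl replicate 2. In the latter fit the only control left was not well above background, so 2.53 is no measured fold. Yme1l1 entered the test only through the groups labelled shTug1.

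**Figure D4:**
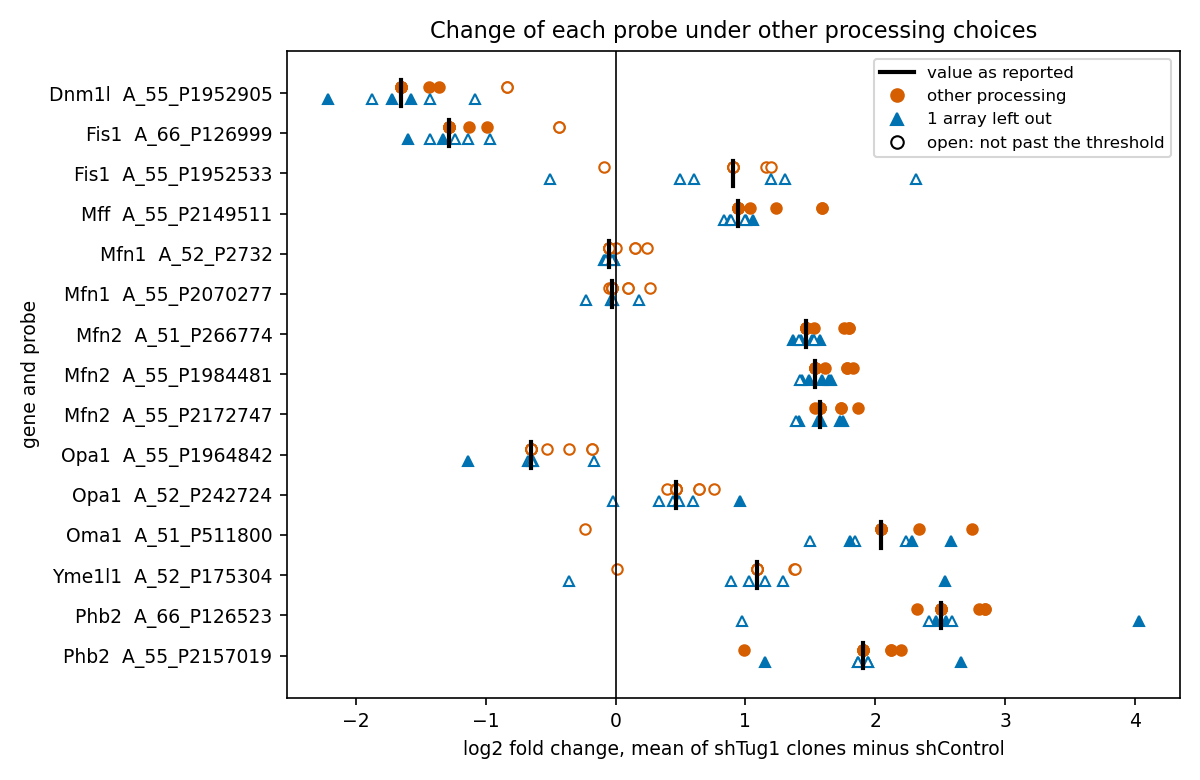
Log2 fold change of each probe (x axis) as reported (bar), under other processing choices (circles) and with 1 array left out (triangles). Filled points passed an adjusted p of 0.05. The Mfn2 points stay between 1.37 and 1.86, while those of Phb2, Oma1 and Yme1l1 spread widely.

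Taken by clone, the arrays labelled clone 2 gave 6 probes higher than control (3 of Mfn2, 2 of Phb2, and Oma1) and 2 lower (Dnm1l and the brighter Fis1). Among all probes, 12.4% were higher and 30.9% lower in that comparison. The arrays labelled clone 3 gave 2 higher, both of Mfn2, and 0 lower, against 4.78% and 4.21% of all probes. At an unadjusted p under 0.05 the clone 3 counts were 5 higher and 2 lower, beside 12% and 23.3% of all probes. The clone 2 and clone 3 log2 fold changes were 1.29 and 1.65 for the brightest Mfn2 probe, −1.67 and −1.63 for Dnm1l, −1.43 and −1.13 for the brighter Fis1 probe, 0.79 and 1.10 for Mff, and 2.46 and 2.55 for the brighter Phb2 probe. The limma adjusted p values of these were 0.0225 and 0.0338 for Mfn2, 0.0320 and 0.0730 for Dnm1l, 0.0257 and 0.0938 for Fis1, 0.0880 and 0.0739 for Mff, and 0.0497 and 0.0872 for Phb2. These comparisons share the control arrays. The clones themselves, on the same slide, gave 0 member probes past the threshold in either direction (0.384% of all probes were higher in clone 3 and 1.48% lower, limma). At an unadjusted p under 0.05 there were 3 members, against 3290 of all 25544 probes, and all 3 were inner membrane probes that were lower on the arrays labelled clone 3. They were Oma1 (−3.39, SE 0.69, adjusted p = 0.0629), Yme1l1 (−2.27, SE 0.84, adjusted p = 0.332) and the dimmer Phb2 probe (−1.54, SE 0.51, adjusted p = 0.268). Oma1 entered the test only through the arrays labelled clone 2, where it was high, so its value here is no test. The brighter Phb2 probe gave 0.08. For Mfn2 at its brightest probe, the clones differed by 0.37 with an interval from −0.41 to 1.15.

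The other genes of the mitochondrial machinery, in 6 lists of 95 genes, were taken at the brightest probe of each. That choice draws on bright probes, which were lower as a class (medians of −0.86 and −1.09 in classes 9 and 10 of the 10 by signal). Some genes counted as lower had another probe that was higher. Of the 93 tested, 12 were higher, 30 lower and 51 did not pass, with a median log2 fold change of −0.74 (limma). These shares lie near those of all probes (11.8% and 27.6%), which count every probe and not only the brightest of each gene. In the fit with 1 probe per gene, 2184 of 21473 were higher and 6532 lower. The list counts also moved with those of all probes. After quantile normalization the lists had 16 higher and 9 lower, beside 3451 and 3438 of all probes. Without shControl replicate 2 they had 17 and 56 beside 12207 lower over all probes, and without shControl replicate 1 they had 8 and 14 beside 3449 lower. Without shTug1 clone 3 replicate 1 the lists had 7 and 1 beside 838 lower, and without shTug1 clone 3 replicate 2 they had 2 and 0 beside 230 lower. Without shTug1 clone 2 replicate 1 there were 11 and 14 beside 3962 lower, and without shTug1 clone 2 replicate 2 there were 12 and 15 beside 4613 lower.

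Of 12 fission adaptors and regulators tested, 0 were higher, 5 were lower and 7 did not pass, with a median of −1.06. Of all probes tested, 11.8% were higher and 27.6% lower. At an unadjusted p under 0.05 the counts were 0 and 8, and the shares of all probes were 14.7% and 37.4%. Slc25a46, an outer membrane protein of the fission and fusion balance, had a log2 fold change of −1.75 (SE 0.39, limma adjusted p = 0.0184). Its other probe, measured on 4 of the 6 arrays, gave −0.01. Dnm2, a dynamin with roles in membrane scission, gave −1.73 (SE 0.38, adjusted p = 0.0177), and its other probe, measured on 5 of the 6 arrays, gave 0.56. Of 7 fusion regulators and lipid factors, 0 were higher and 1 was lower, with a median of −0.42 (0 and 3 at an unadjusted p under 0.05). The lower gene was Miga1, an outer membrane protein that promotes fusion (−1.12, limma adjusted p = 0.0332). After quantile normalization, and likewise in the series values, 1 gene of each of these lists was higher. Of all probes, 3451 of 25544 and 2383 of 19819 were higher in the same order. Dimmer probes of Marchf5 (2.66, limma adjusted p = 0.00851) and Mtch2 (2.55, adjusted p = 0.0383, measured on 5 of the 6 arrays) also passed as higher. A dimmer probe of Mtfr1l passed too (adjusted p = 0.0199), measured on 3 of the 6 arrays. These were chosen after their values were seen.

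Of 12 inner membrane proteases and prohibitin partners, 2 were higher, 7 lower and 3 did not pass, with a median of −1.09. Of all probes tested, 11.8% were higher and 27.6% lower. After quantile normalization the list had 2 higher and 1 lower, beside 3451 and 3438 of all 25544 probes. The series values also gave 2 and 1, beside 2383 and 3843 of 19819 probes. Parl, the rhomboid protease of the inner membrane, rose (1.51, SE 0.38, limma adjusted p = 0.0230), and its other probe gave 3.88. Immp2l, a peptidase of the inner membrane, rose by 1.29 (SE 0.30, adjusted p = 0.0190). Afg3l1, a protease subunit, was lower (−1.37, adjusted p = 0.0175), but its other probes gave 1.92, measured on 4 of the 6 arrays, and 0.03. Ghitm, an inner membrane protein tied to cristae, was lower (−1.31, adjusted p = 0.0325), and its other probe was higher (1.20, adjusted p = 0.0399). Htra2, also counted as lower (−1.27, adjusted p = 0.0352), likewise had another probe that was higher (1.42, adjusted p = 0.0173). Htra2 was chosen after its values were seen. Prohibitin itself, the partner of Phb2 and listed as Phb, was lower at its brighter probe (−1.12, limma adjusted p = 0.0490), with −0.54 at the other. The brighter value was chosen after it was seen, and is opposite in sign to both Phb2 probes. It is near the median of the brightest of the 10 signal classes, which holds this Phb probe (−1.09, with 56.7% of probes lower).

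Of 17 genes for the cristae organising complex MICOS and for cristae shape, 3 were higher, 6 lower and 8 did not pass, with a median of −0.76. Of all probes tested, 11.8% were higher and 27.6% lower. After quantile normalization 2 were higher and 1 was lower, beside 3451 and 3438 of all 25544 probes. Immt, the core MICOS subunit mitofilin, had a level of −3.48 and 0.27 in control and 1.36 to 2.08 on the arrays labelled shTug1, a log2 fold change of 3.24 (SE 0.89, limma adjusted p = 0.0281). Samm50, the outer membrane partner of MICOS, went from −2.47 and −1.24 to between 0.18 and 1.29 (2.82, SE 0.45, adjusted p = 0.0103). As with the brighter Phb2 probe, the controls of both lay farther apart than the 4 arrays labelled shTug1. Immt and Samm50 were at 1.37 (adjusted p = 0.0433) and 2.20 (adjusted p = 0.0390) on the log2 scale without shControl replicate 1, and at 5.12 and 3.44 without shControl replicate 2. Atp5k, a subunit of ATP synthase dimers, fell at its brightest probe (−1.66, adjusted p = 0.0167) and at the other (−1.67, adjusted p = 0.0191). Chchd6, a further MICOS subunit, gave −1.59 (adjusted p = 0.0210). Apoo did not pass at its brightest probe (−0.74), and its other probes gave 1.70 (limma adjusted p = 0.0211) and −0.10. It was chosen after its values were seen.

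Of 15 mitophagy genes, 2 were higher, 5 lower and 8 did not pass, with a median of −0.66 (2 higher and 3 lower after quantile normalization). Of all probes tested, 11.8% were higher and 27.6% lower, with 3451 and 3438 of 25544 after quantile normalization. Bnip3l, counted as lower (−1.24), had other probes at 2.55 (limma adjusted p = 0.0129), 0.95 and 0.08. It was chosen after its values were seen. Tax1bp1, an autophagy receptor, rose by 3.51 (SE 0.79, limma adjusted p = 0.0186), with controls at −2.64 and 0.48. It was 1.95 (adjusted p = 0.0528) without shControl replicate 1 and 5.07 without shControl replicate 2. Bcl2l13, a mitophagy receptor, fell by 1.93 on the log2 scale (SE 0.31, adjusted p = 0.0103), and Rhot1, the Miro GTPase that links mitochondria to transport, fell by 1.45 (adjusted p = 0.0181). Of 30 protein import genes, 5 were higher, 6 lower and 19 did not pass, with a median of −0.38 (8 higher and 1 lower after quantile normalization). The counts of all probes are those given for mitophagy. Pmpca, a subunit of the matrix processing peptidase, rose by 3.02 (SE 0.56, limma adjusted p = 0.0131) and Hspa9, the matrix chaperone of the import motor, by 2.50 (SE 0.45, adjusted p = 0.0128). Their controls stood at −2.78 and −0.70, and 0.13 and 1.71, and without shControl replicate 1 the changes were 1.98 and 1.71, against 4.06 and 3.29 without shControl replicate 2. The import pore gene Tomm40 gave −1.49 (adjusted p = 0.0188), with 1.01 at its other probe, measured on 3 of the 6 arrays. Tomm6 gave −1.44 (adjusted p = 0.0205). After quantile normalization 8 of the lower genes named for the size of their change moved by over 1.5-fold, to between −0.91 and −0.37. They were Slc25a46, Dnm2, Ghitm, Atp5k, Chchd6, Rhot1, Tomm40 and Tomm6. Of these, Slc25a46, Ghitm, Atp5k, Chchd6 and Tomm6 no longer passed (limma adjusted p between 0.0531 and 0.183). With another background correction Immp2l gave 0.52 (adjusted p = 0.0605), Immt 2.39 and Samm50 2.15. Of the 18 named genes of these lists, 17 lost the call in at least 1 fit that left out 1 array, and none changed sign in any alternative that was run. The lists stand here as counts beside those of all probes, since many probes of the array were lower.

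**Figure D5:**
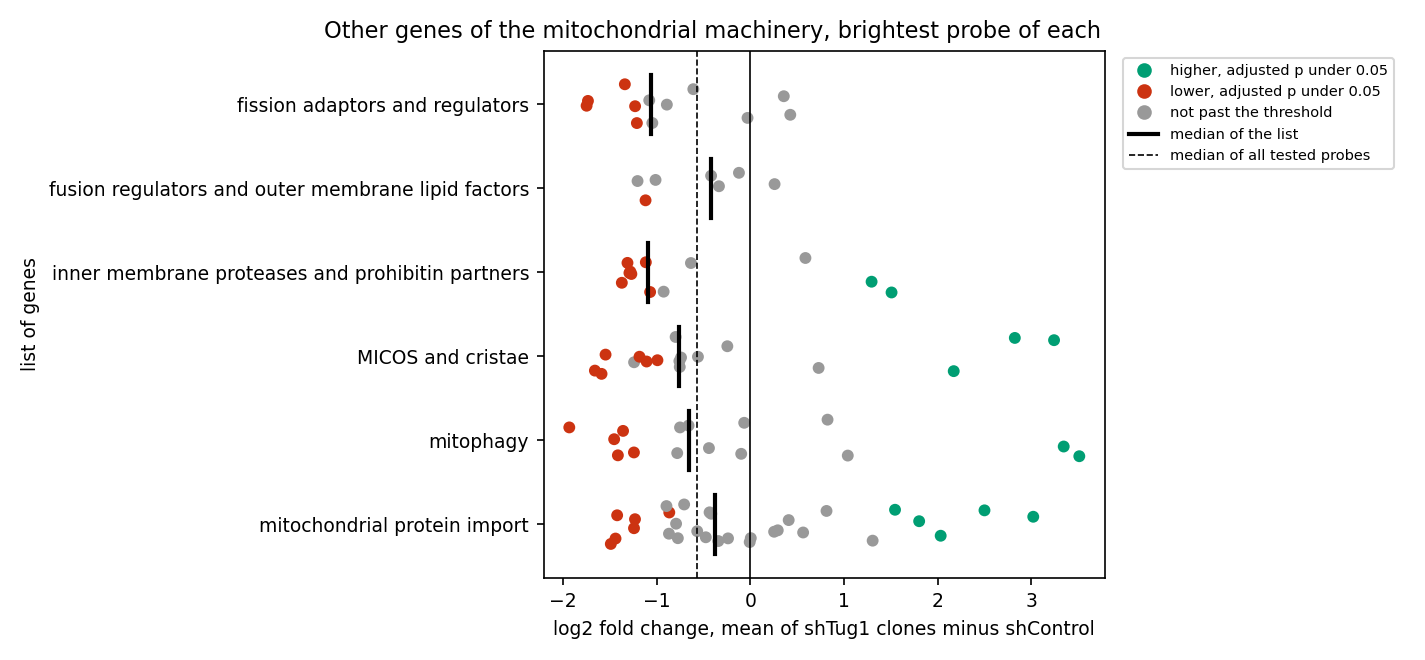
Log2 fold change, mean of the shTug1 clones minus control (x axis), of 93 genes in 6 lists (y axis), each at its brightest probe. Bars are list medians, from −1.09 to −0.38, and the dashed line is the median of all tested probes.

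Over the 6 arrays, the gene whose levels were most like those of Mff, among 12374 genes at their brightest probe, was Mfn2 (Pearson r = 0.993), followed by Xdh (0.991). Those most like Mfn2 were Copg2 (0.998) and Arhgef18 (0.998). Dnm1l was most like Rc3h1 (0.999) and Lamp3 (0.996), and Fis1 most like Lap3 (0.998) and Hhex (0.998). Phb2 was most like Cstf2t (1.000) and Bloc1s4 (0.999), Opa1 most like Mup2 (0.999) and Smim19 (0.999), and Mfn1 most like Rbm28 (0.991) and Spata20 (0.979). Only 20 genes had an r over 0.95 with Mfn1, against 2149 with Opa1 and 2019 with Fis1. The Opa1 probes correlated at −0.92 with each other and the 3 pairs of Mfn2 probes at 0.97, 0.91 and 0.82. These values describe 6 arrays that share 3 groups and 2 slides, so any probe that differs between the slides is alike by this measure.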

How the data were processed

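Total RNA of 6 podocyte cultures was hybridised in Cy3 to one-colour Agilent arrays. The deposited scanner files hold an intensity per spot, and per the file headers the processed signal had its background subtracted. Per the submitters' processing notes the software was Agilent Feature Extraction 11.0.1.1. The deposited series table holds log2 values for 19819 probes, 12 of the 15 members among them, whose normalization the sources used here do not give. Groups came from the sample titles. Probes were named by RefSeq accession, which matched 27234 of 39429 probes to 20659 symbols and left 12195 unnamed. Probe sequences and positions were not used here.

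Log2 processed signals had each array's 75th percentile subtracted, over gene spots, and spots of a probe were averaged. Control spots and outlier spots were left out. Probes stayed in where at least 1 group had both arrays well above background, and 14 such probes were dropped for outlier marks. limma 3.58.1 in R 4.3.3 fitted 3 group means over 6 arrays (3 residual and 4.61 prior degrees of freedom), with probes as the unit. The clones' mean and each clone were compared with control, and clone 3 with clone 2. Tests were two-sided, p-values were adjusted by Benjamini-Hochberg over all probes, and the threshold was 0.05. Precision is limited by the number of arrays, 2 per group.

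For the mean of the clones, 20 sets of simulated data with 25544 probes were tested at each size of change. Of 200 probes changed, a log2 change of 2 let the model recover 0.025% and one of 4 let it recover 84.9%, with 0 and 5.75 false calls on average. In the data 3009 probes were called higher and 7045 lower, far more than the 200 changed here. The adjustment depends on that number, so the recovered shares do not carry over to the comparison reported. The members and gene lists were chosen with earlier results of these data known. The text names all member probes, Tug1 as a check of the labels, per list up to 2 rises and 2 falls among genes past the threshold and well above background on all 6 arrays, and the 2 genes most like each member. Exceptions are marked as chosen after their values were seen. Alternatives were quantile normalization, normexp background correction with an offset of 50, no or a stricter dim-probe filter, the deposited series values, 1 probe per gene, a replicate block, median scaling, outlier spots kept, a trended robust spread and leaving out each array.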

Additional observations from a re-analysis of the deposited data

Results flagged for a closer look

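For the brighter Mfn1 probe (A_52_P2732), both arrays labelled clone 2 lay below both controls (0.88 and 0.75 against 1.20 and 1.12) and both labelled clone 3 lay above them (1.45 and 1.36). The difference of clone 3 minus clone 2 was 0.59 (SE 0.32), and the test of that difference did not pass (limma adjusted p = 0.379). For the second Mfn1 probe the arrays of both clones lay within the range of the controls.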

How the results depend on the processing

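Reported member counts, higher and lower, were 7 and 2 for the mean of the clones, 6 and 2 for clone 2, 2 and 0 for clone 3, and 0 and 0 between the clones. Lower counts went to 0 for the mean and for clone 2 under quantile normalization and with the series values, and to 1 for clone 2 under median scaling. For the mean, all probes had 3438 lower of 25544 and 3843 of 19819 in the first 2 of these settings, against 7045 as reported. For clone 2 they had 3665, 4084 and 5564 lower in the 3 settings, against 7886. With 1 probe per gene, 4, 3 and 1 were higher in the 3 comparisons with control, beside 2184, 2197 and 934 of all 21473 probes. For clone 3, normexp gave 5 higher and 2 lower, the stricter filter 4 and 1, no filter 0 higher, and quantile normalization, the series values or median scaling 3 higher. Among all probes, the clone 3 counts were 1797 higher and 6142 lower of 25544 under normexp, and 1266 and 2095 of 19799 with the stricter filter. With no filter they were 500 and 478 of 39402. All probes had 1293, 1326 and 1346 higher under quantile normalization, the series values and median scaling. Between the clones 2 were lower under normexp and 1 with the replicate block, beside 524 and 592 of all 25544 probes. The replicate block otherwise gave 7 and 2, 7 and 2, and 2 and 0. All probes then had 3069 and 6938, 3247 and 7758, and 1498 and 1398. Same-numbered arrays did not deviate together (correlations of −0.03, 0.12 and −0.09), so the numbers pair nothing. Wider lists had 9 lower genes under quantile normalization, and 19 higher and 14 lower with the series values, against 12 and 30. All probes had 3438 lower in the former, and 2383 higher and 3843 lower of 19819 in the latter.

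Leaving out 1 array gave 0 to 8 higher and 0 to 3 lower for the mean, 3 to 9 and 0 to 3 for clone 2, 0 to 7 and 0 to 3 for clone 3, 0 to 2 lower between the clones, and 2 to 17 and 0 to 56 in the wider lists. Where an arm is left with 1 array, it is assumed to vary like the other groups. The counts of all probes also moved widely in these fits, so these ranges are no result about the members.

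Values of the mean comparison that changed sign were those of Mfn1 A_52_P2732 (0.15 quantile, 0.0059 normexp, 0.15 series values, 0.25 median scaling), Mfn1 A_55_P2070277 (0.10 quantile, 0.10 series values, 0.27 median scaling, −0.23 to 0.18 with 1 array left out), Fis1 A_55_P1952533 (−0.089 normexp, −0.51 to 2.31 with 1 array left out), Oma1 (−0.24 normexp), Opa1 A_52_P242724 (−0.023 to 0.96 with 1 array left out) and Yme1l1 (−0.36 to 2.53 with 1 array left out). The cause was not tested. Median scaling moved the median of all probes from −0.57 to −0.28. Normexp used the median spot signal, chosen after seeing the data because the planned mean spot signal is not a column of the files used, and that planned version was not run. Oma1, Yme1l1 and the dimmer Fis1 probe were dim on some arrays, so their values rest on signals near background.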
